A study of Arabidopsis thaliana with 2 samples.

Results

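The phytochrome-interacting factors (PIFs) and 2 related genes of the same basic helix-loop-helix (bHLH) family were compared between jmj17-1 and wild-type (WT) seedlings of Arabidopsis thaliana. The 8 genes were chosen by locus and by family, from 26743 features in the RPKM table: PIF1, PIF3, PIF4, PIF5, PIF7, PIF8, PIL1 and HFR1. Earlier results of these data were known when they were chosen. RPKM is a read count divided by the length of the feature in kilobases and by the library's reads in units of 1000000. The jmj17-1 seedlings carried a mutation of JMJ17, which removes methyl groups from lysine 4 of histone H3, in the Col-0 background, and the WT seedlings were Col-0. Both were harvested whole at 7 days, after growth in long days (16 h light, 8 h dark) on sucrose-free medium. There was 1 library of each genotype, so no difference below has a replicate check, no test was possible, and every value describes these 2 libraries. The kind and position of the jmj17-1 lesion, the number of seedlings pooled and the hour of harvest were not given in the sources used here. Dark-grown seedlings are not analysed here.

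PIFs are transcription factors that bind G-box and related DNA elements and promote growth in darkness and shade. Phytochromes, the red and far-red light receptors, bind them in light, and most PIFs are then phosphorylated and degraded. PIF1, PIF3, PIF4 and PIF5, often called the PIF quartet, keep the greening programme of dark-grown seedlings in check, and PIF4 and PIF5 also drive elongation at times set by the circadian clock. PIL1 and HFR1 are themselves induced by PIFs in shade, and HFR1 binds PIF proteins and prevents them from binding DNA.

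PIF4 and PIF5 were the 2 most abundant of the 8 transcripts, and both were lower in jmj17-1. As the pair that was lower together, their promoters are shown: the 250 bases before the annotated start of each gene are given here, from RefSeq, build TAIR10.1. The window of PIF4 lies at chr2:17885851-17886100 on the plus strand and that of PIF5 at chr3:21830838-21831087 on the minus strand. Capitals mark the G-box, CACGTG, the core element bound by PIFs.
PIF4: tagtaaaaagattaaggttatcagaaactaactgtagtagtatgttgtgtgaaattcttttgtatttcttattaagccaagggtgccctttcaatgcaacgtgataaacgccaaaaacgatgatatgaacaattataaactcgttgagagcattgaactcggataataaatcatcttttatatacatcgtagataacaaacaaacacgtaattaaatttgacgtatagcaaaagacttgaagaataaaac
PIF5: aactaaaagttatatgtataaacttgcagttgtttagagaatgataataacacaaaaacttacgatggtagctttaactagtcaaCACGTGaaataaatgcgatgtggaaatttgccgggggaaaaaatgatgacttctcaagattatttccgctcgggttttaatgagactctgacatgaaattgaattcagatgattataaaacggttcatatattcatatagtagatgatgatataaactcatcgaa
PIF5 held 1 G-box, with its first base 165 bases before the start, and PIF4 held none. Among 27443 protein-coding genes 6.49% held this element in a window of the same length. Both strands were also searched for CACATG, another element bound by PIFs, present in 11.1% of windows, and for GATACG or GATTCG, bound by the clock protein LUX and present in 12.1%. The search also covered the clock-associated elements AAAATATCT (2.36% of windows) and AAAAATCT (6.69%). Neither window held any of these. AAAATATCT contains no other element searched, and no matches overlapped in these windows. Over 1000 bases before the start, PIF4 held 1 CACATG, at 507 bases, a length at which 37.7% of genes held it. PIF5 held 1 LUX element, at 939 bases, against 39.8% of genes. A match describes the letters of a window only.

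The labels were checked on JMJ17 (AT1G63490) itself, which stood at 2.90 RPKM in jmj17-1 and 5.48 in WT (fold 0.529, 95% counting interval 0.480 to 0.582). The values rested on 45403267 reads in jmj17-1 and 53890006 in WT, totals recovered from the steps between RPKM values. The same steps gave whole read numbers for each of the 8 genes, taken as the smallest that fitted the gene's coding and exonic length. The intervals printed with folds are exact Clopper-Pearson intervals on these reads, and cover counting error only. The log2 ratio was taken of jmj17-1 over WT after 1 RPKM was added to each, so it understates changes of low genes, while folds are plain ratios of RPKM. A gene counted as changed at 2-fold on the log2 scale, an absolute value of at least 1, among the 18969 features whose mean RPKM reached 1. Of these, 0.390% were at least 2-fold higher in jmj17-1 and 0.580% at least 2-fold lower, and the median was 0.04. The tissue label, whole seedling, was checked on organ markers, and shoot markers were abundant, with RBCS1A at 6948 RPKM in jmj17-1 and 7138 in WT. Root markers were present too, with 5 of 5 above 0 in log2 ratio, against 60.5% of all features. Their summed level was 1558 RPKM in jmj17-1 and 1372 in WT, most of it PYK10, at 1516 in jmj17-1 and 1337 in WT. The flower genes AG and AP3 stood below 1 RPKM in both libraries. The seed storage genes CRU3 and CRA1 passed the rule downward, with a summed level of 2.25 RPKM in jmj17-1 and 13.7 in WT.

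None of the PIF and related genes passed the 2-fold rule in either direction. PIL1, at a mean of 0.30 RPKM, was below the minimum, so 7 of the 8 were analysed. Of these, 4 lay below 0 on the log2 scale and 3 above, where 39.5% of all features lay below 0 and 60.5% above. At a 1.5-fold rule 2 of the 7 were lower, PIF4 and PIF5, and none was higher, against 1.93% of all features lower and 1.51% higher. The genes did not move in 1 direction: PIF4, PIF5 and PIF1 were lower in jmj17-1, PIF3 and PIF8 were higher, and the remaining 3 had counting intervals that included no difference.

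**Figure D1:**
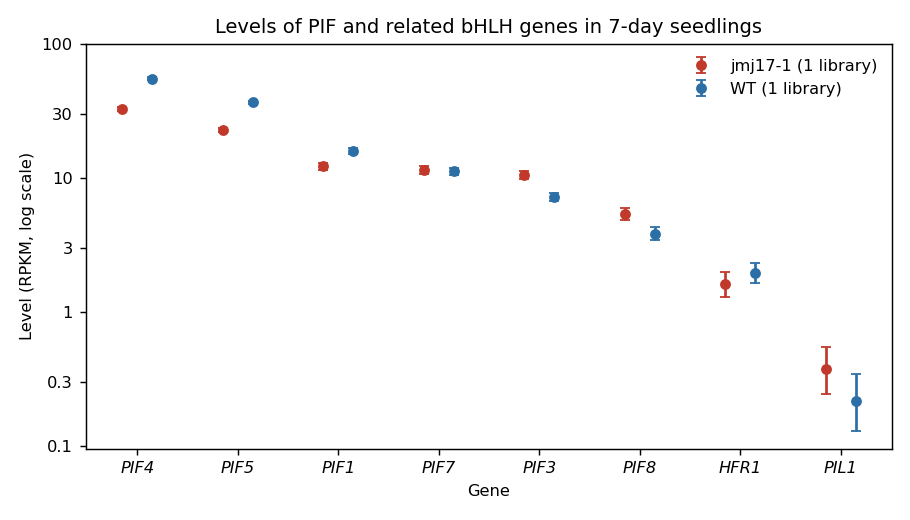
Level of each gene in RPKM (vertical axis, log scale), with the jmj17-1 library to the left of the WT library. Points are single libraries and bars are exact Poisson 95% intervals of the reads, which cover counting error only. The genes keep the same order of level in both libraries, from PIF4 at 32.8 RPKM in jmj17-1 and 55.1 in WT to PIL1 at 0.38 RPKM in jmj17-1 and 0.22 in WT.

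PIF4 (AT2G43010), which drives elongation growth in warmth and shade, stood at 32.8 RPKM in jmj17-1 and 55.1 in WT, from 2825 jmj17-1 and 5623 WT reads. The jmj17-1 level was thus 0.596 of the WT level (0.570 to 0.624), a log2 ratio of -0.73. Only 229 of the 18969 features, 1.21%, had a lower log2 ratio. PIF4 (chr2:17886101-17889087, plus strand) overlaps no other annotated gene. In the authors' deposited table with a p of 0.05 in its name it was the single member of the 8, with a deposited Z of -2.37 and a deposited p of 0.0177, and that table held 410 of the 26743 features, 1.53%. That p in the authors' deposited table treats RPKM values as counts out of 1000000, is not adjusted for the number of features, and takes no account of the spread between seedlings.

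PIF5 (AT3G59060), the closest relative of PIF4, stood at 22.9 RPKM in jmj17-1 and 36.8 in WT, from 2586 jmj17-1 and 4930 WT reads. The fold was 0.623 (0.593 to 0.653) and the log2 ratio -0.66, with 283 features, 1.49%, lower still. The counting interval overlapped that of PIF4. PIF4 was 1.43 times as abundant as PIF5 in jmj17-1 and 1.495 times in WT, a ratio that multiplying a library by a single factor leaves as it is. The longest transcripts of the pair aligned over 791 bases at 70.0% identity, and none of the 8 genes had a transcript of another gene at 95% identity or more over at least 50 bases among 37885 searched. PIF5 (chr3:21827905-21830837, minus strand) overlaps no annotated gene.

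PIF1 (AT2G20180), a repressor of seed germination and of chlorophyll synthesis in darkness, stood at 12.3 RPKM in jmj17-1 and 15.9 in WT, from 1104 jmj17-1 and 1702 WT reads. The fold was 0.770 (0.713 to 0.831) and the log2 ratio -0.35, closer to 0 than those of PIF4 and PIF5. The gene shares 334 bases with AT2G20170 on the opposite strand, and whether reads were counted by strand was not given in the sources used here, so its value is uncertain.

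PIF3 (AT1G09530), the founding PIF, found by its binding to phytochrome B, went the other way. It stood at 10.6 RPKM in jmj17-1 and 7.25 in WT, from 1035 jmj17-1 and 844 WT reads, a fold of 1.46 (1.33 to 1.60). Its log2 ratio of 0.49 was exceeded by 419 features, 2.21% of those analysed. PIF3 (chr1:3075768-3079654, plus strand) has no overlapping gene.

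The makeup of the quartet transcripts differed between the libraries. Their summed level was 78.6 RPKM in jmj17-1 and 115 in WT, a ratio of 0.683. PIF3 made up 13.4% of the sum in jmj17-1 and 6.30% in WT, and PIF4 made up 41.8% in jmj17-1 and 47.9% in WT. PIF4 was 3.11 times as abundant as PIF3 in jmj17-1 and 7.59 times in WT, and PIF5 was 2.17 times as abundant as PIF3 in jmj17-1 and 5.08 times in WT. Multiplying a library by a single factor leaves these ratios as they are.

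**Figure D2:**
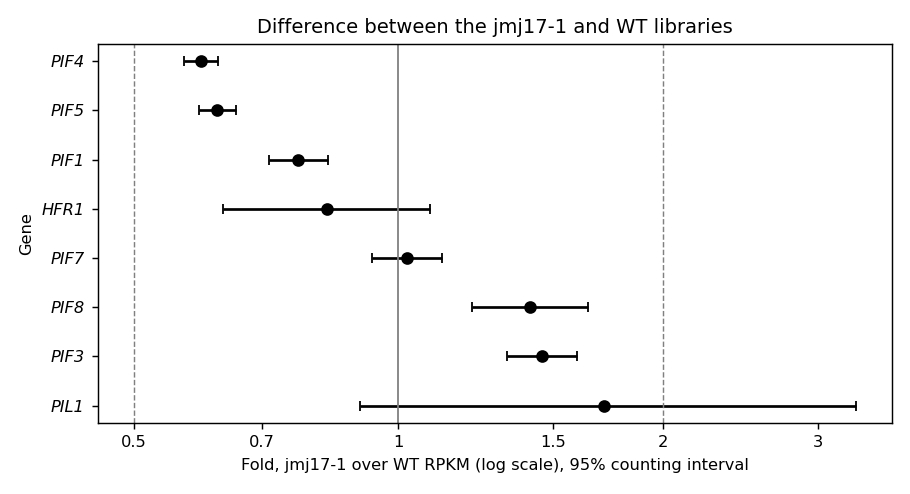
Fold between the libraries for each gene, jmj17-1 over WT (horizontal axis, log scale), with exact 95% counting intervals as bars. Dashed lines mark 2-fold lower and higher. PIF4 and PIF5 lie at 0.596 and 0.623 with overlapping intervals, PIF3 and PIF8 at 1.46 and 1.41, and the intervals of HFR1, PIF7 and PIL1 cross 1.

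PIF8 (AT4G00050), also known as UNE10 and named for an embryo sac phenotype, stood at 5.42 RPKM in jmj17-1 and 3.84 in WT, from 376 jmj17-1 and 316 WT reads. The fold was 1.41 (1.21 to 1.65) and the log2 ratio 0.41, exceeded by 630 features, 3.32%. PIF7 (AT5G61270), the main PIF of rapid shade responses, was nearly level at 11.5 RPKM in jmj17-1 and 11.2 in WT, from 855 jmj17-1 and 992 WT reads. Its fold of 1.02 had an interval of 0.932 to 1.12, and its log2 ratio of 0.03 turned to -0.01 when the median of all features was set to 0. PIF7 shares 318 bases with AT5G61260 on the opposite strand, which stood at 0.96 RPKM in jmj17-1 and 1.27 in WT.

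HFR1 (AT1G02340), the inhibitor of PIF binding, stood at 1.62 RPKM in jmj17-1 and 1.95 in WT, from 95 jmj17-1 and 136 WT reads. The fold of 0.829 had an interval of 0.631 to 1.09, so a difference was not detectable at this depth. PIL1 (AT2G46970), a quickly shade-induced gene, was almost silent at 0.38 RPKM in jmj17-1 and 0.22 in WT. With 26 reads in jmj17-1 and 18 in WT its fold of 1.71 had an interval of 0.905 to 3.32, which includes no difference and a change past 2-fold alike.

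The order of levels was the same in both libraries: PIF4, PIF5, PIF1, PIF7, PIF3, PIF8, HFR1 and PIL1. The gaps between the middle genes were not. In jmj17-1 the counting interval of PIF1, 11.5 to 13.0 RPKM, overlapped that of PIF7, 10.7 to 12.3, which in turn overlapped that of PIF3, 9.92 to 11.2. In WT the same 3 intervals were 15.2 to 16.7, 10.5 to 11.9 and 6.77 to 7.76 RPKM and did not overlap. In rank among all features PIF4 stood at 3467 in jmj17-1 and 2019 in WT, PIF5 at 4909 in jmj17-1 and 3038 in WT, and PIF3 at 9333 in jmj17-1 and 11462 in WT.

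**Figure D3:**
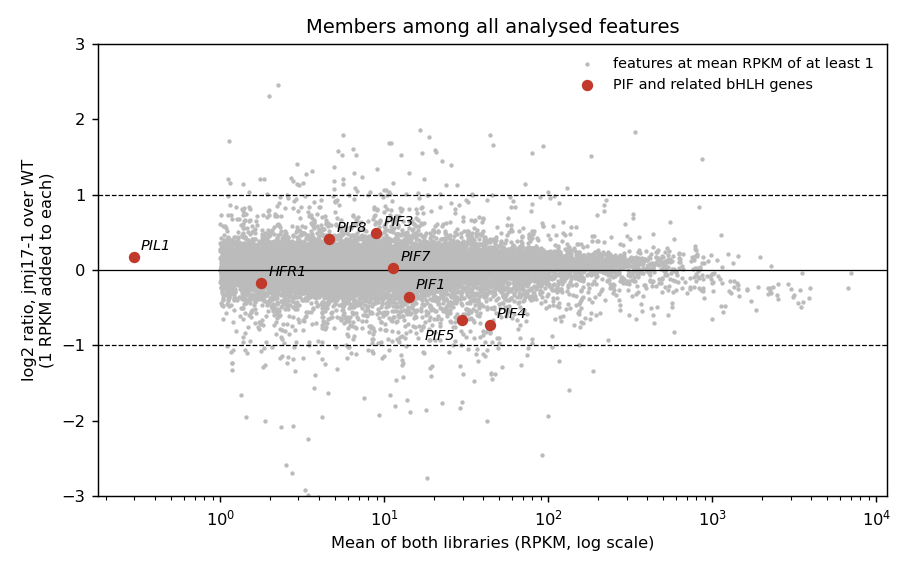
Log2 ratio of jmj17-1 over WT with 1 RPKM added to each (vertical axis) against the mean RPKM of both libraries (horizontal axis, log scale) for the 18969 analysed features in grey and the 8 genes in red. PIF4 and PIF5 lie below most features and PIF3 and PIF8 above most, all inside the dashed 2-fold lines, and 14 features lie outside the axis.

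The wider PIF pathway was described from lists of 103 genes, 89 of which were analysed. Earlier results of these data were known when the lists were made. In these lists 1 gene was at least 2-fold higher and 0 were at least 2-fold lower, against 0.390% and 0.580% of all features. On the log2 scale 48 were below 0 and 41 above, against 39.5% of all features below 0, and the median was -0.03, against 0.04. The same 39.5% and 0.04 are the values to set beside the count and median of each list below. At 1.5-fold on the log2 scale, with 1 RPKM added, 2 were lower, HAT1 and PAR1, a share near the 1.93% of all features. By plain fold IAA19 at 0.650 and PKS4 at 0.645, both of the shade and auxin list, were past 1.5-fold as well. The share of all features past 1.5-fold by plain fold was not calculated.

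Other PIF subfamily genes showed small differences. PIF6 stood at 2.64 RPKM in jmj17-1 and 2.39 in WT. SPT, a bHLH factor of carpel growth and germination, stood at 6.37 RPKM in jmj17-1 and 5.59 in WT (fold 1.14, 0.997 to 1.30), and ALC, its fruit-opening relative, at 6.49 RPKM in jmj17-1 and 6.79 in WT. bHLH23 stood at 1.82 RPKM in jmj17-1 and 1.94 in WT. bHLH56, bHLH119 and bHLH127 were at or under 0.094 RPKM in both libraries.

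Phytochrome genes, which encode the receptors that act on PIF proteins, had log2 ratios between -0.10 and 0.18 for all 5. PHYB, the main receptor of red light, stood at 18.7 RPKM in jmj17-1 and 16.5 in WT (fold 1.14, 1.08 to 1.19), and PHYA, the receptor of far-red light, at 29.5 RPKM in jmj17-1 and 31.7 in WT (fold 0.932, 0.900 to 0.965). PHYC was at 10.9 RPKM in jmj17-1 and 11.4 in WT, PHYD at 4.54 in jmj17-1 and 3.91 in WT, and PHYE at 8.46 in jmj17-1 and 8.51 in WT. Regulators of PIF protein (DELLA proteins, the COP1 and SPA complex, kinases and ubiquitin ligase subunits) spanned log2 ratios of -0.24 for RGL3 to 0.17 for PPK4, with 10 of 20 below 0.

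Genes known to control PIF transcription, mostly of the circadian clock, had none past the rule among 10 analysed, with 5 below 0 and a median of -0.02. The highest was PRR5, a clock repressor, at 55.1 RPKM in jmj17-1 and 41.5 in WT (log2 ratio 0.40). The lowest was TOC1, an evening clock gene, at 51.1 RPKM in jmj17-1 and 54.5 in WT (log2 ratio -0.09). ELF4, a subunit of the evening complex that represses PIF4 and PIF5, stood at 74.2 RPKM in jmj17-1 and 61.9 in WT, and its partner LUX at 47.0 RPKM in jmj17-1 and 49.0 in WT. CCA1, a morning gene, was low in both libraries, at 1.83 RPKM in jmj17-1 and 1.94 in WT. PRR7, another clock gene of this list, stood at 59.1 RPKM in jmj17-1 and 61.2 in WT. PIF4 and PIF5 transcripts follow the clock, and the part of harvest time in their difference was not tested.

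Helix-loop-helix partners and antagonists had 5 of 9 below 0 and a median of -0.03. PAR1, a shade-induced protein that blocks PIF4 from DNA, was the lowest, at 7.03 RPKM in jmj17-1 and 12.0 in WT (fold 0.588, 0.516 to 0.670, from 351 jmj17-1 and 708 WT reads). Its relative PAR2 stood at 7.48 RPKM in jmj17-1 and 8.49 in WT (fold 0.880, 0.730 to 1.06). HEC1, the highest, stood at 2.69 RPKM in jmj17-1 and 1.96 in WT (fold 1.37, 1.07 to 1.77). The BEE and BIM genes of brassinosteroid signalling had 3 of 6 below 0, from BEE2 at 33.5 RPKM in jmj17-1 and 38.2 in WT to BEE1 at 4.61 RPKM in jmj17-1 and 3.34 in WT.

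Shade and auxin genes known to be induced by PIFs lay below 0 in 12 of 16 cases, against 39.5% of all features. Their median was -0.12, against 0.04, and none passed the 2-fold rule. HAT1, a homeodomain-leucine zipper gene of the shade response, was the lowest, at 23.8 RPKM in jmj17-1 and 42.4 in WT (fold 0.563, 0.527 to 0.601). Of the 103 listed genes, 3 were in the authors' deposited table with a p of 0.05 in its name: HAT1, HEMA1 and PORB. Each was lower in jmj17-1, and that table held 1.53% of all features. Its Z treats RPKM values as counts, so abundant genes enter it at smaller folds. PORB was held at a fold of 0.847, and PAR1, at 0.588, was not. IAA19, an auxin response gene, stood at 3.54 RPKM in jmj17-1 and 5.45 in WT (fold 0.650, 0.531 to 0.792), and ATHB2, a shade marker, at 4.25 RPKM in jmj17-1 and 5.72 in WT (fold 0.743, 0.626 to 0.880). TAA1, of auxin synthesis, was the highest at 14.8 RPKM in jmj17-1 and 11.4 in WT (fold 1.30, 1.19 to 1.43). YUC8, an auxin synthesis gene that PIF4 binds, was also higher at 1.39 RPKM in jmj17-1 and 1.02 in WT (fold 1.37, 1.02 to 1.83), and IAA29 was level at 1.67 RPKM in jmj17-1 and 1.66 in WT.

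**Figure D4:**
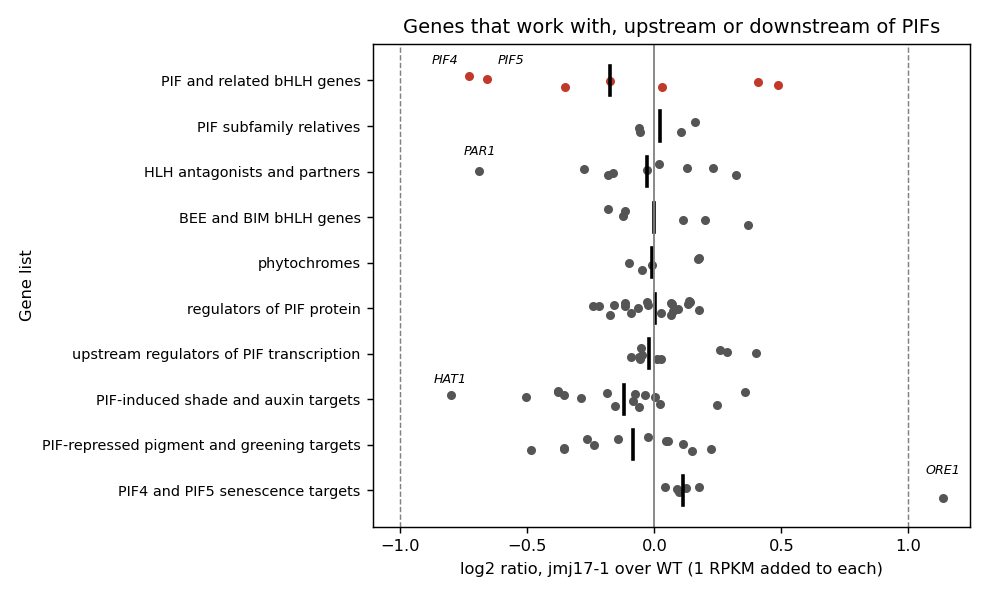
Log2 ratio of jmj17-1 over WT with 1 RPKM added to each (horizontal axis) for each analysed gene of 10 lists (rows). Points are genes, spread vertically within a row for visibility, black bars are list medians and dashed lines mark 2-fold. HAT1 and PAR1 are the lowest listed genes outside the red row, at -0.80 and -0.69, and ORE1, at 1.14, is the single gene past 2-fold.

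Pigment and greening genes listed here as repressed by PIFs had 7 of 12 below 0, against 39.5% of all features. Their median was -0.08, against 0.04. HEMA1, which opens tetrapyrrole synthesis, was the lowest at 97.4 RPKM in jmj17-1 and 136.7 in WT (log2 ratio -0.48). PORB, a protochlorophyllide oxidoreductase, stood at 761 RPKM in jmj17-1 and 898 in WT, and GLK2, a greening regulator, was the highest at 51.5 RPKM in jmj17-1 and 44.0 in WT (fold 1.17, 1.12 to 1.23).

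Among genes that PIF4 and PIF5 induce in leaf senescence, or that lie downstream, 6 of 6 were above 0, against 60.5% of all features, and the median was 0.11, against 0.04. The 2-fold rule was passed upward by 1, against 0.390% of all features. ORE1, a NAC transcription factor that promotes leaf ageing, rose to 8.10 RPKM in jmj17-1, against 3.13 in WT (fold 2.58, 2.13 to 3.15, from 333 jmj17-1 and 153 WT reads). The other 5 had log2 ratios of 0.04 to 0.18. SGR1, which starts chlorophyll breakdown, stood at 5.48 RPKM in jmj17-1 and 4.73 in WT (fold 1.16, 0.95 to 1.41), and NYC1, a chlorophyll b reductase, at 109 RPKM in jmj17-1 and 99.5 in WT. Of the germination genes downstream of PIF1, DAG1 alone reached the minimum, at 4.69 RPKM in jmj17-1 and 4.82 in WT. SOM and ABI3 were at or under 0.142 RPKM in both libraries.

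In whole seedlings, fewer cells that express a gene and less RNA per cell cannot be told apart. The 3 shoot markers had log2 ratios of -0.36 to -0.04, with a summed level of 11830 RPKM in jmj17-1 and 13160 in WT. All 3 were also below 0 with the other pseudocounts, minimum levels and scalings, apart from quantile normalization. There CAB3 stood at -0.06, RCA at 0.0 and RBCS1A at 0.09. Quantile normalization sets a value by its rank alone, and RCA held rank 18 in both libraries. It therefore cannot show a difference in level that leaves the rank of such abundant genes nearly unchanged. The root markers ranged from 0.01 to 0.65. Above 0 were 4 of 5 when the median of all features was set to 0, and 4 of 5 under quantile normalization. The part of these markers and of the lower seed storage transcripts in the PIF4 and PIF5 differences was not tested.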

How the data were processed

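Messenger RNA was sequenced from whole seedlings, 1 library per genotype, with a TruSeq kit per the labels' protocols. The authors deposited RPKM per feature, and TAIR10 is the build named in the submitters' processing notes. Aligner, counter, feature lengths and strand setting were not given in the sources used here. Z scores were also deposited by the authors and equal, within 1e-09 on all 26743 features, the Z of 2 proportions with RPKM entered as counts. The p-value was deposited by the authors beside it. The authors' log2 column was not used.

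Each library column was assigned by its title, and 0 sample columns were left over. Read numbers were recovered from RPKM. The ratio of RPKM between libraries, divided by the depth ratio, equalled a ratio of whole numbers up to 100000 within 1e-13 for 75.5% of 24815 features above 0 in both. The total of 53890006 reads in WT came from 59 single-transcript loci. A gene's reads were taken as the smallest multiple whose implied length was whole, at least its longest coding length and at most its exonic bases. Where no such multiple was found, no interval is given. Genes were named by a rule: the 8 members, JMJ17, all phytochromes and PIF relatives, and in each list those past 2-fold or else the highest and lowest. Further names (ELF3, ELF4, LUX, CCA1, PRR7, PAR2, IAA19, PKS4, ATHB2, YUC8, IAA29, SGR1, NYC1, PORB) were chosen after their values were seen. The members and lists were chosen with earlier results of these data known. Gene positions and windows are from RefSeq TAIR10.1, in which all 8 members were found. Python 3.11.15, NumPy 2.4.6, pandas 2.3.3, SciPy 1.17.1 and BLAST+ 2.17.0 were used. Scripts were tested on simulated data. The alternatives were other pseudocounts, minimum levels, scalings and a 1.5-fold rule.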

Additional observations from a re-analysis of the deposited data

How the results depend on the processing

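No member passed the 2-fold rule with a pseudocount of 0.1 or 5 RPKM, with no minimum or a minimum of 5 RPKM, with the median of all features set to 0, with quantile normalization, or with rescaling without organelle-encoded features. Over the pseudocounts and scalings the log2 ratio ranged from -0.77 to -0.67 for PIF4, -0.70 to -0.58 for PIF5, -0.39 to -0.28 for PIF1, 0.34 to 0.54 for PIF3 and 0.24 to 0.49 for PIF8. PIF7 ranged from -0.01 to 0.04, and PIL1 from 0.04 to 0.58. Under the 1.5-fold rule 2 members and 2 listed pathway genes were lower. Of these, PIF5 at -0.58 and PAR1 at -0.49 no longer reached 1.5-fold with a pseudocount of 5 RPKM, while PIF4 and HAT1 did. With a pseudocount of 0.1 RPKM, IAA19 at -0.61 and PKS4 at -0.59 reached it as well. With a pseudocount of 5 RPKM 0 listed pathway genes were higher, ORE1 then standing at 0.69, because the added value weighs on low genes, and CRA1 stood at -0.89. The median of the PIF-induced shade and auxin list ranged from -0.16 to -0.06. In the senescence list, EIN3 stood just below 0 when the median of all features was set to 0, which left 5 of 6 above. Over all features, 142 were higher and 159 lower with a pseudocount of 0.1 RPKM, and 25 and 49 with 5 RPKM. No paired analysis was possible because each genotype has 1 library, and for the same reason no library could be left out. Depth limits HFR1 and PIL1, whose intervals include no difference.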
